A study of Mus musculus with 6 samples.

Results

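The hypoxia-inducible factors and 8 of their regulators and marker genes were followed in primary chondrocytes, the cells of cartilage, cultured from mouse articular cartilage. The 10 genes were chosen by symbol: Hif1a, Epas1, Egln1, Egln3, Bnip3, Bnip3l, Car12, Adm, Vegfa and Ndrg1. All 10 matched exactly 1 of the 55377 gene rows of each count table, and all 10 had enough counts to be tested among 14683 genes. There were 3 RNA-seq libraries of chondrocytes given an siRNA against Irf1 and 3 of chondrocytes given a control siRNA, all collected 36 h after transfection. The siRNA target is the gene of interferon regulatory factor 1, which interferons induce. The sources used here give neither the age, sex and strain of the mice nor the oxygen level of the cultures and the sequences of the siRNAs. Whether the 3 libraries of a group stand for separate cultures or mice is not stated, and the spread behind each p-value may therefore be technical.

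Hypoxia-inducible factors are pairs of an oxygen-controlled alpha subunit and the constant partner ARNT. When oxygen is plentiful, prolyl hydroxylases of the EGLN family mark the alpha subunit for binding by the VHL ubiquitin ligase and for degradation, so that control acts largely on the protein and not on its mRNA. When oxygen is low, the pair binds short hypoxia response elements with the core ACGTG or GCGTG and raises genes of glycolysis, pH control, blood vessel growth and mitophagy. Cartilage has no blood vessels. HIF-1 alpha, from Hif1a, is known as a survival factor of chondrocytes, while HIF-2 alpha, from Epas1, is known in mouse cartilage as an inducer of matrix-degrading enzymes.

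Library totals ran from 22349142 to 26752065 counts with Irf1 siRNA and from 28565096 to 29282494 with control siRNA, so every Irf1 siRNA library was the shallower. The targeted gene itself was lower in each library of its label: Irf1 had 5.64, 5.08 and 6.02 CPM (counts scaled to a common total per library, with TMM factors) with Irf1 siRNA, against 11.1, 12.6 and 12.2 CPM with control siRNA. The 7 chondrocyte markers summed to between 85734 and 112046 CPM with Irf1 siRNA and to between 84725 and 111370 CPM with control siRNA, and 0 of the 7 passed the test. Most of this sum came from Col2a1, at 71709 CPM with Irf1 siRNA and 72194 CPM with control siRNA on average. Endothelial cells also express Epas1 strongly. The summed level of 10 endothelial markers was 2.43 to 3.61 CPM with Irf1 siRNA and 2.21 to 2.97 CPM with control siRNA. Of the 3 testable ones 0 passed, and the raw counts of the 10 moved both ways. Over the Irf1 siRNA libraries Cdh5, the junctional cadherin gene of endothelial cells, had 4 counts and Pecam1 35, against 9 and 63 over the control libraries. Kdr had 25 and Esam 37 counts over the Irf1 siRNA libraries, against 17 and 27 over the control libraries. The part of endothelial cells in the level of Epas1 was not tested. Of 6 macrophage markers only the lysosomal gene Cd68 was testable, and it rose (log2 fold change 0.40), while Adgre1 was at 0 counts in all 6 libraries. The 6 summed to 9.01 to 10.1 CPM with Irf1 siRNA and 6.03 to 8.64 CPM with control siRNA, and most of this sum came from Cd68, at 9.001 CPM with Irf1 siRNA and 6.81 CPM with control siRNA on average. Ptprc, the pan-leukocyte gene, had 9 counts over the Irf1 siRNA libraries and 20 over the control libraries, and Csf1r had 21 over the Irf1 siRNA libraries and 33 over the control libraries. Of 6 fibroblast markers, which primary chondrocytes in culture also express, 4 were testable and the collagen genes Col1a1, Col1a2 and Col3a1 fell, by 0.51, 0.53 and 0.55 on the log2 scale. The summed level of these 6 was 5016 to 6176 CPM with Irf1 siRNA and 7004 to 8602 CPM with control siRNA, and the part of the macrophage and fibroblast markers in the falls described next was not tested. In bulk RNA, fewer cells of a type and less RNA per cell cannot be told apart.

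Of the 10 genes, 7 were lower with Irf1 siRNA and 0 were higher at an adjusted p under 0.05 in edgeR's quasi-likelihood test with Benjamini-Hochberg adjustment over all tested genes. Of all 14683 tested genes, 22.4% passed this threshold, 12.0% lower and 10.4% higher. Epas1, Bnip3 and Car12 fell the most, Adm and Ndrg1 fell by less, and Hif1a and Vegfa fell by small amounts. The prolyl hydroxylase genes Egln1 and Egln3 and the mitophagy gene Bnip3l did not pass. The median log2 fold change of the 10 was −0.29, against 0.00 over all tested genes. The 10 genes and the lists further below were chosen with earlier results of these data known. Their counts and medians may therefore partly describe that choice. The groups did not overlap for the same 7 genes, a separation in either direction that 38.1% of all tested genes also showed, 19.5% lower and 18.6% higher.

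**Figure D1:**
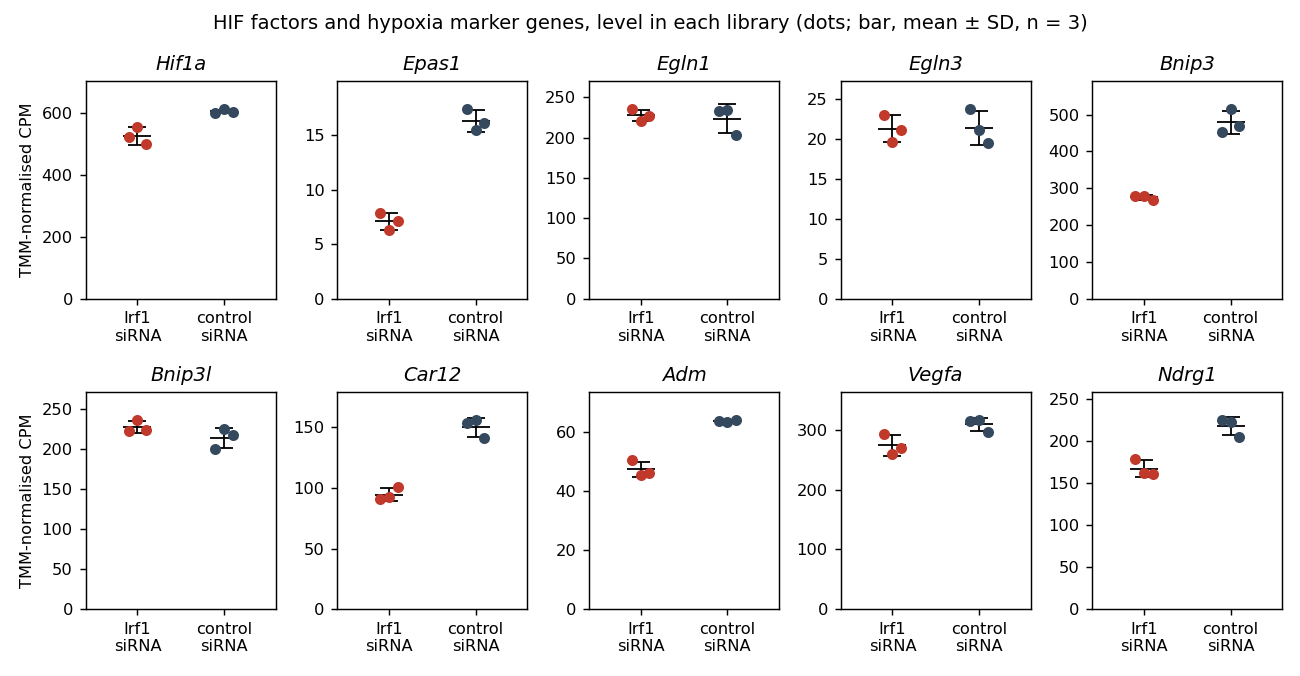
Level of each of the 10 genes in every library, in TMM-normalised CPM on axes that start at 0; dots are libraries, red for Irf1 siRNA and dark for control siRNA, and bars are the mean ± SD (n = 3). The groups are apart for Hif1a, Epas1, Bnip3, Car12, Adm, Vegfa and Ndrg1 and overlap for Egln1, Egln3 and Bnip3l.

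Short stretches of 3 transcripts are shown because each holds a searched word, a short run of bases, in its 3′ untranslated region (3′ UTR). The word is not the same in all 3: Epas1 and Car12 hold GCTATCT, and Bnip3 holds ACTGATC. An earlier analysis of these same libraries had picked out the word ACTGATC with its neighbour by a shift of 1 base, CTGATCA, and the word GCTATCT with its own such neighbour, CTATCTA, as present in 3′ UTRs of genes that fell, so their presence in lower genes describes that choice and supports nothing separately. Each stretch is given on the transcript strand with the matched word in capitals, from GENCODE release M21 on GRCm38, a build other than that of the counts.
Epas1, chr17:86832362-86832388, plus strand: aacattgcaaGCTATCTtttcgtgttc
Bnip3, chr7:138891564-138891590, minus strand: tgtatttaaaACTGATCtgtaatcata
Car12, chr9:66765426-66765452, plus strand: aaagcagaaaGCTATCTgtgtagaact
These 3 genes were the only ones of the 10 with a word in the 3′ UTR, and they had the 3 largest falls of the 10. The matches began at base 1270 of 2308 in the 3′ UTR of Epas1, base 335 of 1079 in Bnip3 and base 1079 of 2488 in Car12. Among tested genes with a 3′ UTR within 1.2-fold of the same length, 31.8% held at least 1 of the words for Epas1, 15.2% for Bnip3 and 33.4% for Car12. Hif1a, Adm, Vegfa and Ndrg1 also fell and held none of the words, as did Egln1, Egln3 and Bnip3l. Over all 12820 tested genes with an annotated 3′ UTR, 26.5% of the 2710 holding a word were lower, against 9.75% of the 10110 holding none. Whether these words have a part in any of the falls was not tested.

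The alpha subunits came first in the comparison. Epas1 had 7.85, 6.32 and 7.13 CPM with Irf1 siRNA, against 17.3, 15.4 and 16.1 CPM with control siRNA. The highest Irf1 siRNA library lay below the lowest control library by a wide margin, on 174, 174 and 167 raw counts against 486, 435 and 476. The log2 fold change was −1.20 (SE 0.10, edgeR adjusted p = 6.6e-07), which leaves 43.5% of the transcript, where 46.5% was left of Irf1 itself. Larger falls than that of Epas1 were seen in 23 of the 10458 tested genes that averaged 5 CPM or more.

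Hif1a was the more abundant of the pair and moved little. Its level was 522.4, 554.4 and 498.6 CPM with Irf1 siRNA, against 599.4, 610.7 and 602.5 CPM with control siRNA. The control libraries lay close together (604.2 ± 5.88 CPM, SD, n = 3), and the Irf1 siRNA libraries were lower and more spread (525.2 ± 28.0 CPM). The fall of 0.20 on the log2 scale (SE 0.06) had an edgeR adjusted p of 0.0178. Leaving out Irf1 siRNA replicate 3 ended that call (adjusted p = 0.106), as did leaving out control replicate 2 (adjusted p = 0.063).

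Setting Epas1 against Hif1a within each library removes depth and scaling from the comparison. The log2 ratio of Epas1 to Hif1a was −6.06, −6.46 and −6.13 in the Irf1 siRNA libraries, against −5.11, −5.31 and −5.23 in the control libraries. The ratio was lower by 1.00 on the log2 scale with no overlap between the groups, and the two-sided exact permutation test gave p = 0.1, the smallest value that 3 libraries against 3 allow. Per kilobase of annotated exon, Hif1a stood 70.1-fold above Epas1 with Irf1 siRNA and 35.2-fold above it with control siRNA.

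Epas1 was also set against each of the other 8 genes in the same way. All 9 ratios were lower in every Irf1 siRNA library than in any control library, each with an exact permutation p of 0.1, also 0.1 when adjusted over the 9 ratios. The difference was smallest for Epas1 over Bnip3, at −0.40 on the log2 scale, and for Epas1 over Car12, at −0.53. It was −0.77 for Epas1 over Adm, −0.82 over Ndrg1 and −1.03 over Vegfa. Over the 3 genes that did not pass the test it was −1.23 for Egln1, −1.19 for Egln3 and −1.29 for Bnip3l. With 3 libraries against 3, these ratios could not pass a threshold of 0.05.

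**Figure D2:**
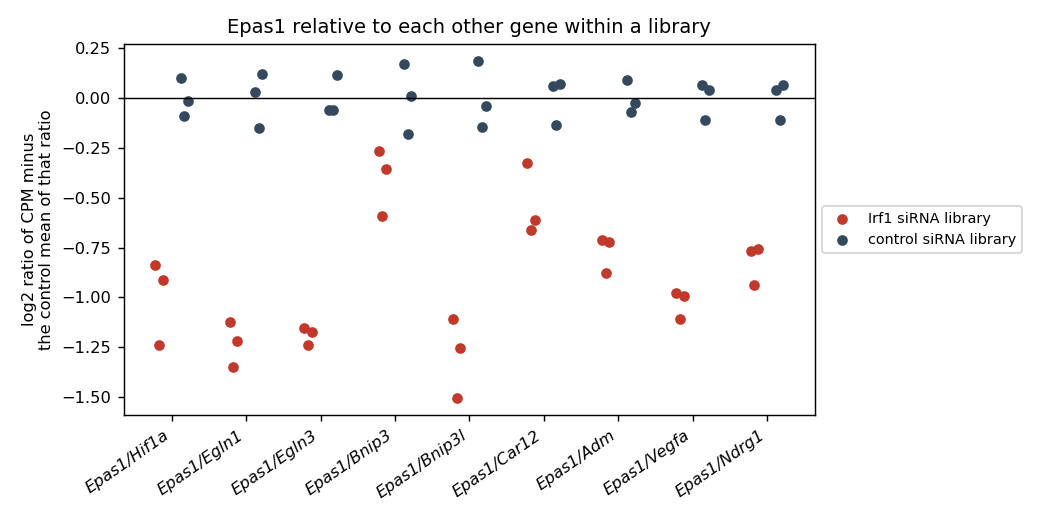
Log2 ratio of Epas1 to each of the other 9 genes within a library, minus the mean of that ratio over the control libraries; red dots are Irf1 siRNA libraries and dark dots control siRNA libraries. In all 9 ratios the Irf1 siRNA dots lie below the control dots, nearest to them for Bnip3 (mean difference −0.40) and farthest for Bnip3l (−1.29). All 9 share the Epas1 values, and lower means follow from Epas1 having the largest fall.

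The prolyl hydroxylase genes Egln1 and Egln3 did not pass the test. Egln1, which encodes PHD2, the main prolyl hydroxylase acting on HIF-1 alpha, had 234.9, 220.9 and 227.3 CPM with Irf1 siRNA, against 232.9, 234.4 and 202.7 CPM with control siRNA. The groups overlapped. The log2 fold change of 0.03 had a 95% interval of −0.10 to 0.15 (edgeR adjusted p = 0.796) and was −0.0387 without control replicate 3. Egln3 encodes PHD3, a hydroxylase that is itself a hypoxia target. It had 23.0, 19.6 and 21.2 CPM with Irf1 siRNA, against 23.7, 21.1 and 19.5 CPM with control siRNA. Its groups overlapped too. The log2 fold change was −0.01 with a 95% interval of −0.19 to 0.16 (edgeR adjusted p = 0.938), and its sign turned with upper-quartile scaling (0.0128) and with library totals alone (0.0108).

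The related mitophagy receptors Bnip3 and Bnip3l, known hypoxia targets that tag mitochondria for removal, differed in their values. Bnip3 had 277.7, 280.1 and 268.3 CPM with Irf1 siRNA, against 453.7, 514.0 and 469.9 CPM with control siRNA. Every Irf1 siRNA library was far below every control library, and the fold change of −0.80 on the log2 scale (SE 0.06) had an edgeR adjusted p of 1.8e-07. Bnip3l had 222.3, 235.7 and 223.4 CPM with Irf1 siRNA, against 199.7, 224.1 and 216.9 CPM with control siRNA. Those groups overlapped, and the log2 fold change of 0.09 had a 95% interval of −0.03 to 0.20 (edgeR adjusted p = 0.306). The log2 ratio of Bnip3 to Bnip3l was 0.28 ± 0.04 with Irf1 siRNA and 1.17 ± 0.04 with control siRNA (SD, n = 3), a difference of −0.89 with no overlap. This ratio was chosen after its values were seen, and its exact permutation p of 0.1 is again the smallest possible.

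Car12 encodes a membrane carbonic anhydrase that helps control pH outside the cell. Its level was 90.6, 92.2 and 100.4 CPM with Irf1 siRNA, against 153.0, 155.7 and 141.0 CPM with control siRNA. The groups were well apart, and the log2 fold change was −0.67 (SE 0.06, edgeR adjusted p = 1.6e-06). Car9, the other membrane carbonic anhydrase gene known as a hypoxia target, gave 83.0 ± 7.51 CPM with Irf1 siRNA and 79.3 ± 9.70 CPM with control siRNA (SD, n = 3), with an edgeR adjusted p of 0.64.

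Secreted and stress markers fell by less. Adm, which encodes the vasodilator peptide adrenomedullin, had 50.5, 45.7 and 46.1 CPM with Irf1 siRNA, against 63.8, 63.5 and 64.1 CPM with control siRNA. The control libraries were nearly equal and all above the Irf1 siRNA libraries, and the log2 fold change was −0.43 (SE 0.06, edgeR adjusted p = 1.0e-04). Ndrg1, a stress-responsive gene induced by hypoxia, had 178.7, 161.8 and 161.0 CPM with Irf1 siRNA, against 224.7, 222.1 and 205.2 CPM with control siRNA. It was lower in each Irf1 siRNA library than in any control library, with a log2 fold change of −0.38 (SE 0.06, edgeR adjusted p = 3.6e-04).

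Vegfa, which encodes the growth factor of blood vessels, had the largest adjusted p of the 7 genes that passed. Its level was 293.5, 259.3 and 269.4 CPM with Irf1 siRNA, against 314.0, 315.9 and 296.7 CPM with control siRNA, so the highest Irf1 siRNA library nearly reached the lowest control library. The log2 fold change was −0.17 (SE 0.06) with an edgeR adjusted p of 0.0494. The call was lost under 7 of 13 alternatives, among them leaving out Irf1 siRNA replicate 2 or 3 or control replicate 1 or 2, with adjusted p of 0.134 to 0.153 for those 4. Under every alternative Vegfa kept a negative log2 fold change, from −0.22 to −0.13.

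**Figure D3:**
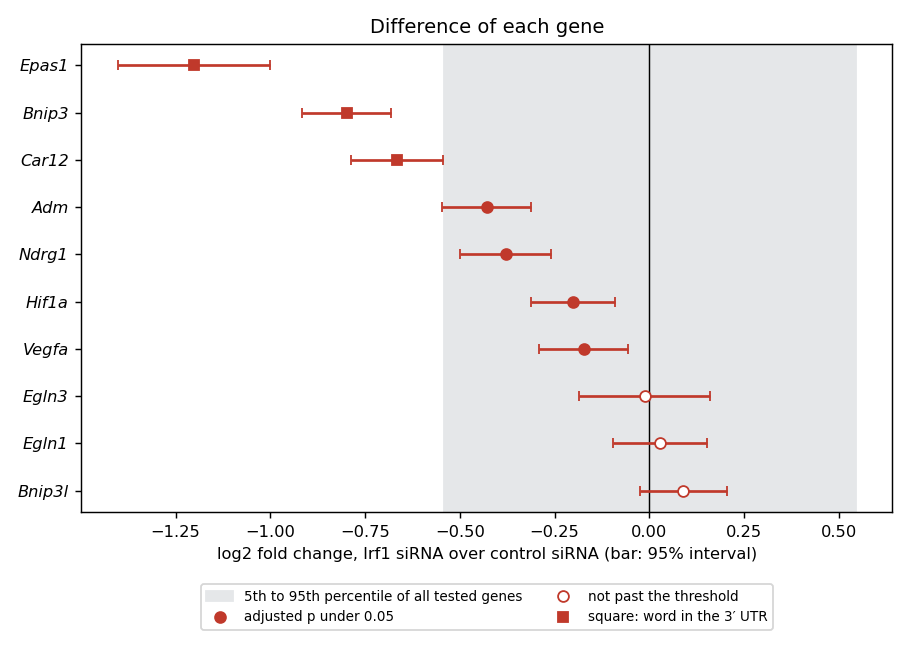
Log2 fold change of each of the 10 genes, Irf1 siRNA over control siRNA, with bars for the 95% interval; filled marks passed an edgeR adjusted p of 0.05, squares mark genes with a word in the 3′ UTR, and the grey band spans the 5th to 95th percentile of all tested genes (−0.54 to 0.54). Epas1, Bnip3 and Car12 lie left of the band, and the other 7 genes lie inside it.

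Levels were compared between the genes only per length of annotated exon. With control siRNA, Bnip3 was the highest at 211.6 ± 13.8 CPM per kilobase, followed by Hif1a at 102.5 ± 0.998, Vegfa at 72.1 ± 2.47, Egln1 at 62.1 ± 4.97 and Bnip3l at 55.3 ± 3.25 (SD, n = 3 each). Adm at 39.4, Ndrg1 at 33.0, Car12 at 19.7, Egln3 at 8.06 and Epas1 at 2.91 CPM per kilobase came after them. Among neighbours in this order, only Egln1 and Bnip3l overlapped between libraries. With Irf1 siRNA the order of the 10 stayed the same, and there Vegfa (64.0 ± 4.10 CPM per kilobase) and Egln1 (63.4 ± 1.94) were the only overlapping neighbours. Epas1 was the lowest in both groups, at 1.27 ± 0.14 CPM per kilobase with Irf1 siRNA.

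Promoter windows are shown for 3 genes because they hold different numbers of hypoxia response element cores, and because Bnip3 and Car12 fell while Egln1 did not pass the test. They come from RefSeq on GRCm38.p6, run from 250 bases before to 50 bases after the start of the gene, and carry ACGTG or GCGTG on either strand in capitals (CACGT and CACGC on the strand shown). Overlapping matches on opposite strands count separately.
Bnip3, chr7:138909457-138909756, minus strand: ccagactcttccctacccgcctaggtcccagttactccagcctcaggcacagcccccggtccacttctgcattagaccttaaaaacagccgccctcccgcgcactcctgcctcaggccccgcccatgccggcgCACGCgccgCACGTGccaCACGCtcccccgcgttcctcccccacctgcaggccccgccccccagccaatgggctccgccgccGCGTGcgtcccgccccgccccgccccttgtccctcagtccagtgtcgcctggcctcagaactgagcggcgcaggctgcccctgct
Car12, chr9:66713436-66713735, plus strand: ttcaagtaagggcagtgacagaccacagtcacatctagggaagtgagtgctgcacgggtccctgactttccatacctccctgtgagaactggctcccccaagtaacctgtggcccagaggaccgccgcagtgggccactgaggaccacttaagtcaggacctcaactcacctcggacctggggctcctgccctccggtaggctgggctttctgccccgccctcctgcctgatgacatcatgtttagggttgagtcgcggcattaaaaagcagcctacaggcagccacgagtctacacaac
Egln1, chr8:124949205-124949504, minus strand: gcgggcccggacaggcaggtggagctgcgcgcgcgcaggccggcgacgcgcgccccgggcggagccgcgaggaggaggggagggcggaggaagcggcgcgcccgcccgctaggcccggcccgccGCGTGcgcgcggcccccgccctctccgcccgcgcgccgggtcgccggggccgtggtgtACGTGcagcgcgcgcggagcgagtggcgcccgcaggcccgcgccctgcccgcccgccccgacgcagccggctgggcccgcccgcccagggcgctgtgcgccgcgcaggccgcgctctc
The Bnip3 window held 5 matches, a pair of them overlapping in CACGTG, and 3.09% of the 13710 windows of tested genes held 5 or more. That share is not matched for base composition: G and C made up 71.7% of the Bnip3 window, 58.3% of that of Car12 and 86% of that of Egln1. The Car12 window held 0 matches and the Egln1 window held 2. Whether any match has a part in the values of these genes was not tested. The window of Hif1a held 3 matches, Adm 2 and Egln3 1, while the main window of Vegfa held 0 and that of an internal start held 2. At least 1 match was present in 61.1% of the windows of tested genes, so a match by itself is common. Windows were available for 7 of the 10 genes. A match is a description of letters, and its absence from 300 bases says nothing about binding elsewhere.

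Of 14 other subunits and regulators of the factors, all tested, 2 fell and 1 rose (21.4%, against 22.4% of all tested genes). Arnt, the shared partner of both alpha subunits, had 66.0, 72.0 and 70.3 CPM with Irf1 siRNA, against 81.3, 78.6 and 82.3 CPM with control siRNA. The groups did not overlap, and the log2 fold change was −0.22 (SE 0.06, edgeR adjusted p = 0.0121). P4htm, a transmembrane prolyl hydroxylase, was low at 0.826 ± 0.112 CPM with Irf1 siRNA and 1.67 ± 0.103 CPM with control siRNA (SD, n = 3; adjusted p = 0.00637). Hif3a, which encodes a further alpha subunit whose short forms can restrain the others, rose to 3.03 ± 0.394 CPM with Irf1 siRNA, against 1.77 ± 0.606 CPM with control siRNA (log2 fold change 0.78, SE 0.22, adjusted p = 0.0205). Leaving out Irf1 siRNA replicate 3 (adjusted p = 0.101), control replicate 1 (0.0715) or control replicate 3 (0.0785) ended its call. Cited2, a feedback inhibitor that competes with the factors for their coactivators, was the most abundant gene of this list that did not pass, at 205.3 ± 10.2 CPM with Irf1 siRNA and 221.6 ± 9.65 CPM with control siRNA (SD, n = 3; edgeR adjusted p = 0.201). Vhl gave 0.13 on the log2 scale with an adjusted p of 0.246.

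Genes of glucose uptake and glycolysis known as hypoxia targets differed by small amounts. Of 20 tested rows for 19 symbols, 4 fell and 0 rose (20% called, against 22.4% of all tested genes). The log2 fold change was negative in 18 of the 20, and the median was −0.14, against 0.00 over all tested genes. Aldoa was listed on 2 rows. Pfkp, a phosphofructokinase gene, had 199.1, 200.6 and 207.5 CPM with Irf1 siRNA, against 273.6, 283.0 and 267.9 CPM with control siRNA (log2 fold change −0.44, edgeR adjusted p = 2.7e-05). Slc16a3, which encodes a lactate exporter, had a log2 fold change of −0.37 (adjusted p = 9.1e-04), Pdk1, whose kinase slows the entry of pyruvate into the mitochondrial cycle, −0.18 (0.0299) and the enolase gene Eno1 −0.19 (0.0368). Pkm, the pyruvate kinase gene and the most abundant that did not pass, gave −0.11 (adjusted p = 0.23). The calls of Pdk1 and Eno1 were each lost without Irf1 siRNA replicate 2 or 3 or control replicate 1 or 2, which leaves 2 calls without Irf1 siRNA replicate 2 or either of these controls.

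Among 27 tested of 28 other hypoxia targets, 5 fell and 2 rose (25.9% called, against 22.4% of all tested genes), with a median log2 fold change of −0.12. The share over all tested genes, here and for the other lists, is not matched for expression level. A refit of only genes averaging 5 CPM or more called 1535 of 10456 genes lower and 1349 higher. In that refit 5 of 26 other hypoxia targets were lower and 2 higher. Zfp395 fell by 0.54 on the log2 scale (edgeR adjusted p = 1.3e-04), the lipoprotein lipase inhibitor gene Angptl4 by 0.31 (0.00791) and Fam162a by 0.18 (0.0232). Lox, a collagen cross-linking enzyme gene, fell by 0.24 (0.0351) with overlapping groups. The call of Lox was lost without Irf1 siRNA replicate 1 or 3 or control replicate 2 or 3 (adjusted p from 0.103 to 0.138), and that of Fam162a without Irf1 siRNA replicate 3 or control replicate 1 or 2 (0.0762 to 0.118). Upper-quartile scaling also ended the call of Lox (adjusted p = 0.0550), and scaling by library totals alone ended those of Lox (0.0903) and Fam162a (0.0579). The transferrin receptor gene Tfrc rose by 0.50 (adjusted p = 7.4e-04) and Plod2, a collagen lysyl hydroxylase gene, by 0.24 (0.00517). P4ha1, a collagen prolyl hydroxylase gene and the most abundant that did not pass, gave −0.05 (adjusted p = 0.573). The count of lower genes was 3 without Irf1 siRNA replicate 3 or without control replicate 2. Epo was at 0 counts.

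Genes known in mouse chondrocytes as induced by HIF-2 alpha did not move one way. Of 8 tested of 9 listed, 2 fell and 1 rose (37.5% called, against 22.4% of all tested genes), and the median log2 fold change was −0.11. Mmp3, which encodes stromelysin-1, had 67.5, 51.8 and 53.6 CPM with Irf1 siRNA, against 43.3, 33.3 and 36.3 CPM with control siRNA (log2 fold change 0.61, SE 0.12, edgeR adjusted p = 0.00366). The groups did not overlap. Adamts4, an aggrecanase gene, was low and fell to 1.70 ± 0.024 CPM with Irf1 siRNA, against 2.67 ± 0.066 CPM with control siRNA (adjusted p = 0.0137). Col10a1, the collagen of hypertrophic chondrocytes, fell by 0.35 (adjusted p = 0.0308), a call lost without Irf1 siRNA replicate 1 or 2 or control replicate 2 or 3 (adjusted p from 0.0545 to 0.102). Mmp13, the main collagenase, gave 0.09 with an adjusted p of 0.808, and Nos2 had 7 counts over the Irf1 siRNA libraries and 9 over the control libraries.

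In the 4 further lists, most genes holding a searched word in the 3′ UTR did not pass the test, as was so of all tested genes holding a word. Of 4 such genes of the HIF machinery, Arnt fell, and Hif1an, Eloc and Crebbp did not pass. Both such glycolytic genes, Slc16a3 and Pdk1, were lower. Of 9 such other targets, Angptl4 fell and the other 8 did not pass, and of 2 such HIF-2 targets, Adamts4 fell and Mmp9 did not pass. Over all 12820 tested genes with an annotated 3′ UTR, 26.5% of those holding a word were lower and 7.12% were higher. Of the lower genes among the 12820, 42.1% held a word, against 13.6% of the higher ones and 18.6% of those not past the threshold. The words had been picked out in these same libraries from genes that fell, so these shares describe that choice and support nothing separately. They are also not matched for the length of the 3′ UTR.

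**Figure D4:**
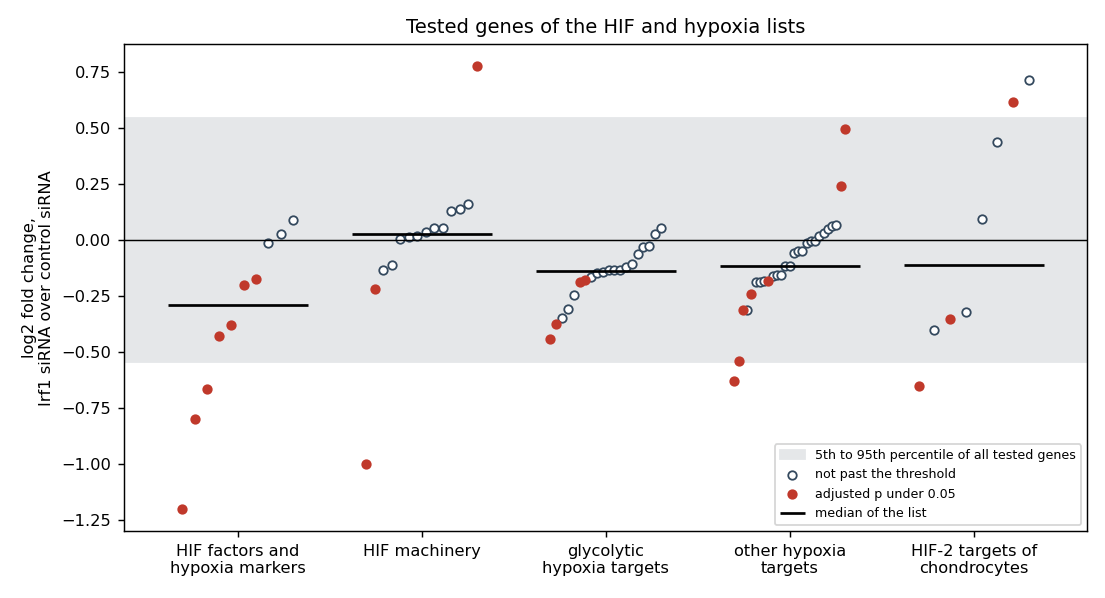
Log2 fold change, Irf1 siRNA over control siRNA, of every tested gene in the 5 lists; red points passed an edgeR adjusted p of 0.05, open points did not, black lines are list medians and the grey band spans the 5th to 95th percentile of all tested genes. The medians run from −0.29 for the 10 HIF factors and hypoxia markers to 0.03 for the HIF machinery.

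The genes whose pattern over the 6 libraries was most like that of Epas1 were looked for among 10157 others that averaged 5 CPM or more and had a symbol that is no clone or predicted name. The measure was the largest absolute difference to Epas1 in log2 CPM, centred on the control mean. Arpc1a, a subunit gene of the actin-nucleating Arp2/3 complex, was nearest, with a largest difference of 0.10. Next came Chst14, a dermatan sulfate sulfotransferase gene (0.17), Maged1 (0.19), Irf1 itself (0.20) and Sptlc1, which encodes a subunit of the enzyme that starts sphingolipid synthesis (0.20). A fall of about the size of that of Epas1 follows from this choice. The log2 fold changes of the 5 ran from −1.23 for Arpc1a to −1.10 for Maged1. None of the other 9 HIF factors and hypoxia markers was among these 5. That also follows from the measure, since none of the 9 fell by nearly as much as Epas1 (at most −0.80, for Bnip3).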

How the data were processed

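Poly(A)-selected, stranded libraries of total RNA were made from chondrocytes given Irf1 siRNA (3 libraries) or control siRNA (3 libraries), per the labels' protocols. The authors deposited raw read counts per gene, 1 table per library, with no normalisation. Reads were trimmed with Trimmomatic 0.39 and aligned with STAR, and the build was GRCm39 (mm39), as the submitters' processing notes say. The sources used here do not give the counting tool, annotation release or strand setting, so overlapping and antisense genes can share reads.

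Counts were tested in R 4.3.3 with edgeR 4.0.16: filterByExpr, TMM factors, glmQLFit (robust) and glmQLFTest with treatment as the only term, two-sided, Benjamini-Hochberg over 14683 genes. Standard errors are the absolute log2 fold change over the square root of F, and intervals are ±1.96 SE. Alternatives used DESeq2 1.42.0, limma 3.58.1, other scalings and filters, a replicate block and leaving out each library. The procedure was tested on simulated counts. Ratios within libraries were tested by exact permutation over all 20 regroupings. No library was a copy of another (chi-square per degree of freedom between libraries of 1 group, 5.76 to 16.6). Exon lengths and 3′ UTRs (the longest per gene) came from GENCODE M21, and promoter windows from RefSeq, both on GRCm38 and matched by identifier or symbol.

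The 10 genes and all lists were chosen with earlier results of these data known. Named from each list are the members past the threshold (at most 6, by adjusted p) and the most abundant that is not; Vhl, Car9, Lox, Nos2 and Epo were added after their values were seen. A gene that this rule names is not reported here.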

Additional observations from a re-analysis of the deposited data

How the results depend on the processing

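Epas1, Bnip3, Car12, Adm and Ndrg1 kept their direction and stayed past the threshold under all 13 alternatives. The number of the 10 genes called lower was 5 to 7 when single libraries were left out, and that called higher was 0 throughout; Hif1a lost its call under 2 alternatives and Vegfa under 7. Egln3, not called, turned to a log2 fold change of 0.0128 with upper-quartile scaling and 0.0108 with library totals alone. Leaving out single libraries gave Egln3 −0.0782 to 0.0646 and Egln1 −0.0387 to 0.0626. Upper-quartile scaling left 2 lower glycolytic targets. Library totals alone left 3 lower other hypoxia targets and 1 lower HIF-2 target. With no low-count filter 8 other hypoxia targets were lower. Testing only genes that average 5 CPM or more, the HIF machinery had 1 lower and 0 higher genes and the HIF-2 targets 1 lower, since low genes were no longer tested. Leaving out single libraries gave 959 to 1398 higher genes in all, 0 to 2 higher genes of the HIF machinery, 2 to 5 lower glycolytic targets, 3 to 7 lower other targets and 1 to 2 lower HIF-2 targets. The other causes were not tested. The replicate numbers did not pair the libraries: deviations from the group means of same-numbered libraries correlated at 0.41, −0.15 and 0.08 over 10458 genes. Between libraries of different number the correlations ran from −0.52 (Irf1 siRNA replicate 1 with control replicate 3) to 0.49 (Irf1 siRNA replicate 2 with control replicate 3). Libraries of the groups thus shared some variation that the numbers do not follow, and its source was not tested. With the replicate block 1984 genes were lower and 1744 higher, the 10 genes kept 7 lower calls, and the Epas1 to Hif1a ratio differed by −0.997 with an exact p of 0.25, the smallest that 3 pairs allow. That ratio does not depend on scaling by construction.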
